A study of Caenorhabditis elegans with 6 samples.

Results

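The glutathione S-transferase genes of Caenorhabditis elegans whose symbols start with gst- were followed in whole adult worms kept on either of 2 bacterial diets. The members were taken by symbol from the gene tables of both diets, which gave 44 members among 18811 genes. Worms were raised at 20 °C on nematode growth medium and moved at larval stage 4 onto Escherichia coli BW25113, a laboratory strain, or onto the E. coli strain that the labels call a mutant named purE. The bacterial gene of that name acts in purine synthesis; what was altered in the strain is not in the labels. No worm genotype or strain name, no adult age and no further treatment is given for either group, and the RNA came from whole bodies of synchronized adults. Each diet had 3 RNA sequencing libraries with summed estimated counts between 21880627 and 22607939. Nothing in the labels says if replicates came from separate worm cultures. The p-values therefore set the diet difference against the spread between these libraries, which may be technical.

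Glutathione S-transferases join the tripeptide glutathione to electrophilic compounds, such as aldehydes from oxidised lipids and many foreign chemicals, so that the conjugates can be exported from the cell. In C. elegans the family is large, several of its genes lie in tandem arrays, and the gut and the epidermis are main sites of expression. The transcription factor SKN-1 induces a part of the family under oxidative and electrophile stress, and gst-4 is the usual reporter of that response.

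The purE libraries were not alike. The markers of sperm and spermatogenesis, of which 11 of 21 were in the files, summed to 253 to 435 CPM (counts scaled to library size with TMM factors) on BW25113. On purE they summed to 528 CPM in replicate 1, 4167 in replicate 2 and 2131 in replicate 3. Most of each sperm sum came from the gene msp-19. The intestine markers, 8 of 10 in the files, summed to 921 to 958 CPM on BW25113 and to 1027, 2260 and 1819 CPM in purE replicates 1, 2 and 3. Most of this was the actin gene act-5, at 573 to 626 CPM on BW25113 and 610, 1477 and 1254 CPM on purE. In that list ges-1, elt-7 and mtl-2 had log2 fold changes of 0.07, 0.04 and -0.01, and the others from 0.39 to 1.29. The body wall muscle markers summed to 8863 to 9628 CPM on BW25113 and to 9762, 15314 and 13647 CPM on purE, and the neuron markers to 253 to 271 and to 251, 392 and 314 CPM. The epidermal markers, 7 of 8 in the files, summed to 3488 to 4252 CPM on BW25113 and to 2425, 3747 and 5563 CPM on purE, most of it the collagen gene col-19. Within that list the collagen gene rol-6 stood at 0.507 to 3.20 CPM on BW25113 and at 1.69, 227 and 48.7 CPM on purE. The log2 fold change of rol-6 was 5.62 ± 1.48 (adjusted p of 0.129 by edgeR, 0.00738 by DESeq2). The transcription factor gene lin-26 was lower in every purE library than on BW25113. Its log2 fold change was -0.73 ± 0.30 (adjusted p of 0.271 by edgeR, 0.258 by DESeq2). The oocyte and germline markers summed to 9378 to 10685 CPM on BW25113 and to 7943, 5077 and 8364 CPM on purE, and those of the early embryo to 6.87 to 11.8 CPM and to 3.05, 2.06 and 3.16 CPM. No marker was at 0 in all libraries. Among the defining genes at 0 in some libraries were bus-8 of the epidermis in 3 libraries and med-1 of the early embryo in 5. In whole worms, a different number of cells of a type and a different amount of RNA per cell cannot be told apart.

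Levels within the family spread widely. By the deposited FPKM, which the authors scaled for length and depth, 5 members averaged at least 50 FPKM over the 6 libraries, 10 lay between 10 and 50, 14 between 1 and 10 and 15 under 1. gst-1 (R107.7; chromosome III, 9059331 to 9060181, WBcel235), a pi-class enzyme, was the most abundant. It stood at 223, 187 and 198 FPKM on BW25113 and at 299, 177 and 194 FPKM on purE. gst-10 averaged 118 FPKM over all libraries, gst-7 averaged 106, gst-27 averaged 83.3 and gst-26 averaged 57.3. The ranges of each neighbouring pair in this order overlapped over the 6 libraries. The order below gst-1 depended on the gene length used. The length implied by the FPKM of gst-26 was 1.93 times its annotated exon length, against 0.844 to 1.17 times for the 30 other members that could be compared, with gst-10 at 0.878 and gst-7 at 1.17. When TMM-scaled counts were divided by the annotated length, gst-7 averaged 123, gst-26 averaged 114, gst-10 averaged 108 and gst-27 averaged 78.8 CPM per kilobase, below 199 for gst-1. These 5 genes held between 54.8% and 71.9% of the family's CPM in a library.

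**Figure D1:**
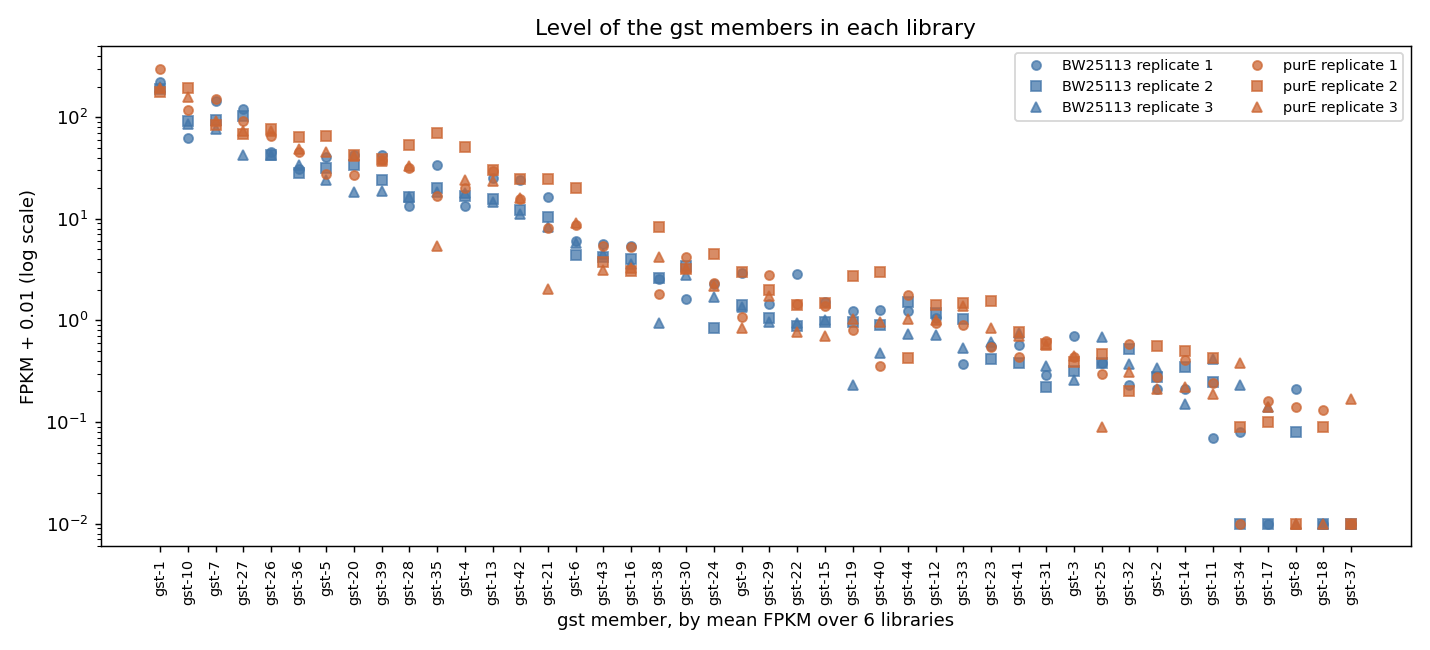
FPKM + 0.01 on a log axis for each of the 44 members, ordered by the mean over 6 libraries; blue points are BW25113 and orange points purE, with a shape for each replicate. gst-1 stands highest at a mean of 213 FPKM, and points at the bottom edge are values listed at 0.

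At the low end stood 13 members that did not pass the low-count filter and were not tested, namely gst-2, gst-3, gst-8, gst-11, gst-14, gst-17, gst-18, gst-23, gst-25, gst-31, gst-32, gst-34 and gst-37. Their highest count in any library was 22 and their means ran from 0.0267 to 0.747 FPKM. Every member had reads in at least 1 library. Of the 44 members, 25 lay on chromosome II, 9 on V, 4 on IV, 3 on X, 2 on I and 1 on III. Members no more than 20 kb apart formed 4 clusters with 25 members in all, and the other 19 stood alone. A cluster of 9 on chromosome II, from 15163817 to 15185389, held gst-26 and gst-27 together with gst-31, gst-32 and gst-34, so that means ran from 0.123 to 83.3 FPKM among neighbours. A second cluster of 9, from 13608154 to 13630887, ran from 0.0333 to 34.1 FPKM, with gst-20 highest. In the cluster of 4 from 4879891 to 4893573, gst-7 averaged 106 FPKM and its neighbour gst-8 averaged 0.0667 FPKM.

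The diet comparison was purE over BW25113, and no member was called. At an adjusted p under 0.05 edgeR's quasi-likelihood test called 0 of 31 tested members and 0% of all 12144 genes tested, and the lowest p after Benjamini-Hochberg adjustment was 0.129 in both sets. At an unadjusted p under 0.05 there were 7 members higher on purE (22.6% of those tested), against 12.7% of all genes, and 0 lower, against 3.81%. DESeq2 called 1 member higher, or 3.23%, against 6.26% of all genes, and 0 lower, against 1.53%. A log2 fold change above 0 was found for 25 members, or 80.6%, against 51.6% of all genes, and the median was 0.52 against 0.03. For 6 members, or 19.4%, every purE value exceeded every BW25113 value, against 13.1% of all genes, and for 0 every purE value was lower, against 6.68%. Both these 6 members and the 7 at an unadjusted p under 0.05 include gst-26. Its reads were divided with gst-27, and the summed pair overlapped between diets. The shares of called members and of members with separated groups are close to those of all genes. The mean of the summed family was 574 ± 139 CPM with BW25113 and 820 ± 167 CPM with purE (SD, n = 3). The sums were 703, 592 and 428 CPM on BW25113 and 651, 986 and 821 CPM on purE, so that the groups overlapped.

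**Figure D2:**
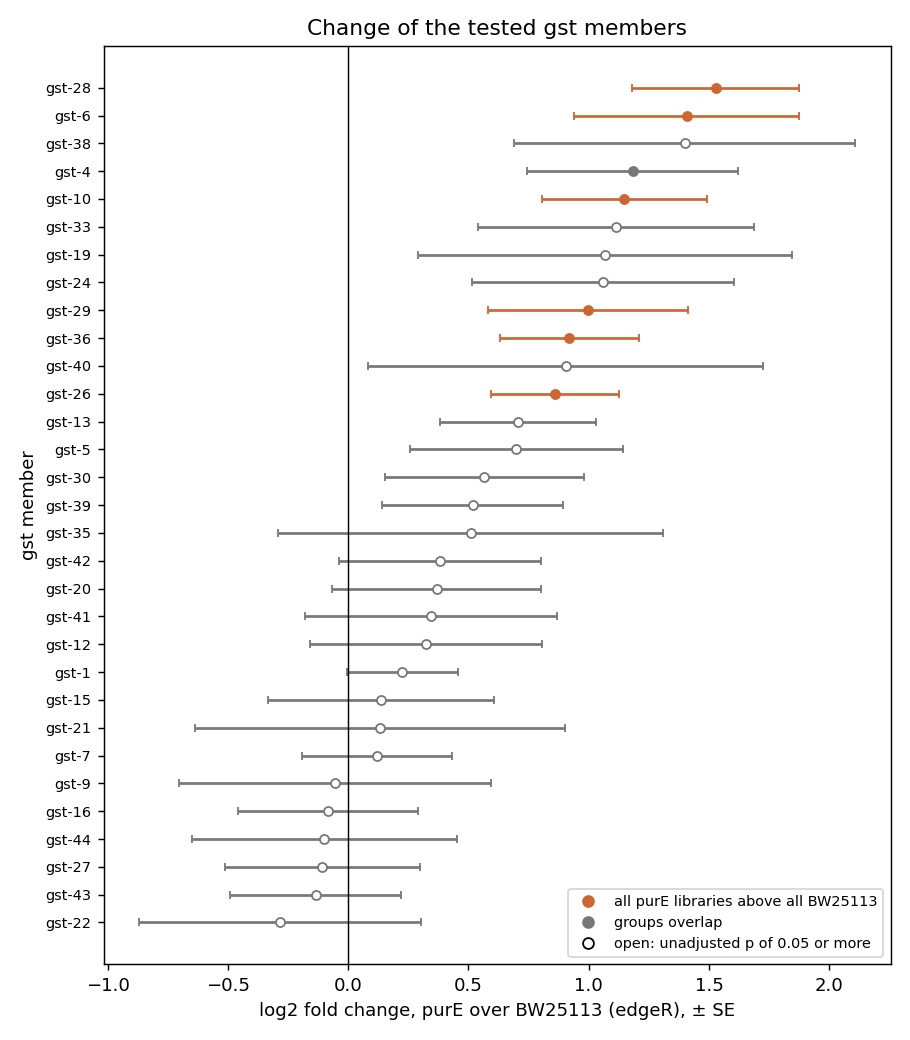
Log2 fold change of purE over BW25113 with its SE from edgeR for the 31 tested members. Orange marks the 6 members whose purE libraries all lie above BW25113, and filled points the 7 with an unadjusted p under 0.05; 25 of the 31 values are above 0.

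The enzymes reported to conjugate hydroxynonenal, a toxic aldehyde of lipid peroxidation, are encoded in C. elegans by gst-5, gst-6, gst-8, gst-10 and gst-24. gst-10 (Y45G12C.2; chromosome V, 2561690 to 2564645) stood at 39.3, 59.7 and 45.8 CPM on BW25113 and at 61.2, 141 and 118.8 CPM on purE. All purE libraries were higher, but in CPM replicate 1 exceeded the highest BW25113 library only slightly. In the deposited FPKM, purE replicate 1 stood at 117, against 91.9 in the highest BW25113 library. The log2 fold change of gst-10 was 1.15 ± 0.34 (SE). The adjusted p was 0.144 by edgeR and 0.0592 by DESeq2. gst-6 (F11G11.3; chromosome II, 4879891 to 4881105) stood at 4.34, 3.28 and 3.59 CPM on BW25113 and at 5.18, 16.9 and 7.70 CPM on purE. The groups did not overlap, with replicate 2 far above the other purE libraries. The difference was 1.41 ± 0.47 on the log2 scale (edgeR adjusted p of 0.179), and 0.79 without purE replicate 2.

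The other members of that group did not separate by diet. gst-5 stood at 27.6, 21.96 and 13.8 CPM on BW25113 and at 15.6, 50.6 and 36.6 CPM on purE, with a log2 fold change of 0.70 ± 0.44, and it was 0.31 without purE replicate 2. gst-24 averaged 1.05 ± 0.486 and 2.21 ± 1.17 CPM (SD, n = 3), with a log2 fold change of 1.06 ± 0.54 and 0.55 without purE replicate 2. gst-8 was near the detection floor, where 3 counts correspond to between 0.133 and 0.137 CPM before TMM scaling, a limit that covers counting error only.

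gst-4 (K08F4.7; chromosome IV, 10142225 to 10143099), the SKN-1 reporter, stood at 10.2, 13.3 and 11.9 CPM on BW25113 and at 13.0, 45.3 and 22.2 CPM on purE. In CPM, replicates 2 and 3 were above every BW25113 library, whereas replicate 1 lay within their range. The deposited FPKM of gst-4 were 13.19, 16.75 and 17.96 on BW25113 and 20.24, 50.84 and 24.28 on purE, without overlap. The overlap in gst-4 therefore depends on the scaling. For gst-4 the log2 fold change was 1.18 ± 0.44 (adjusted p of 0.220 by edgeR, 0.146 by DESeq2), and it was 0.58 without purE replicate 2. The deposited counts of gst-4 were not whole in any library and added to whole numbers with those of dhs-12, a short-chain dehydrogenase gene on the same strand, in 6 of 6 libraries (within 0.015). The annotated exons of the 2 genes share 65 bases of the 731 exon bases of gst-4. gst-4 held 22.6% to 30.8% of the summed count on BW25113 and 26.7%, 53.3% and 33.4% in purE replicates 1, 2 and 3. The summed pair, which adds the reads that belong to dhs-12 alone, had a log2 fold change of 0.58 ± 0.27 (edgeR adjusted p of 0.331). The sperm gene msp-38 lies 257 bases beyond gst-4 on the other strand and stood at 26.99 to 42.9 CPM on BW25113 and at 58.4, 516 and 273 CPM in purE replicates 1, 2 and 3. Its part in the gst-4 values was not tested.

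In the cluster at 15163817 to 15185389 on chromosome II, 6 of 9 members were tested and 5 had a log2 fold change above 0. gst-28 (Y53F4B.31; 15166194 to 15167577) stood at 8.91, 11.3 and 9.38 CPM on BW25113 and at 17.6, 41.3 and 26.3 CPM on purE. Every purE library was above every BW25113 library. The log2 fold change of gst-28 was 1.53 ± 0.35, the largest among tested members. The adjusted p was 0.129 by edgeR and 0.00486 by DESeq2, which called it alone of the family. With edgeR and single libraries left out it ranged from 1.16 without purE replicate 2 to 1.65 without purE replicate 1. Some reads were divided between gst-28 and gst-32, but gst-28 held at least 97.2% of the summed count in each library. The summed pair gave 1.51 ± 0.35. gst-29 (15168538 to 15169861) was low, at 0.940, 0.692 and 0.534 CPM on BW25113 and 1.51, 1.48 and 1.34 CPM on purE, and its purE libraries were all higher. The log2 difference was 1.00 ± 0.42 (edgeR adjusted p of 0.280).

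The neighbours gst-26 and gst-27, with 336 bases between them in the annotation used here, had different values. The FPKM of gst-26 implied a length of 1325 bases, against 688 annotated exon bases. Whether the counting used the same gene bounds is not known. gst-26 (Y53F4B.29; 15163817 to 15164553) stood at 60.5, 58.1 and 47.9 CPM on BW25113 and at 71.3, 116 and 115 CPM on purE, without overlap. Its log2 fold change was 0.86 ± 0.27 (edgeR adjusted p of 0.155). gst-27 (Y53F4B.30; 15164890 to 15165731) stood at 84.0, 72.8 and 25.2 CPM on BW25113 and at 53.2, 55.0 and 60.5 CPM on purE. BW25113 replicate 3 was far below the other libraries of its diet, and the purE values lay between. Its log2 fold change was -0.11 ± 0.41 (edgeR adjusted p of 0.889). The counts of the 2 genes were not whole in any library and added to whole numbers in 5 of 6, so reads had been divided between them. gst-26 held 41.9%, 44.4% and 65.6% of the summed count on BW25113 and 57.3%, 67.8% and 65.6% on purE. Summed, the pair stood at 144, 131 and 73.0 CPM on BW25113 and 124, 171 and 176 CPM on purE, which overlapped. The log2 fold change of the pair was 0.43 ± 0.31 (edgeR adjusted p of 0.504), so the values of gst-26 and gst-27 taken singly are uncertain.

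**Figure D3:**
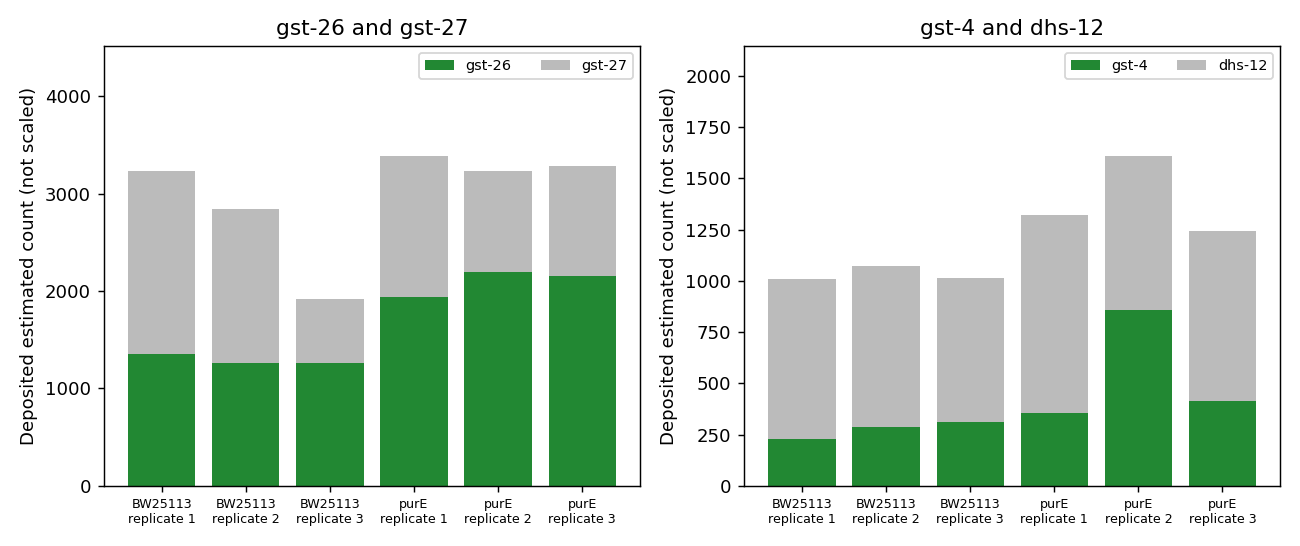
Deposited estimated counts of gst-26 and gst-27 (left) and of gst-4 and dhs-12 (right), stacked for each library from 0. The share of gst-26 is 65.6% in BW25113 replicate 3 and 41.9% in BW25113 replicate 1, and the share of gst-4 is highest in purE replicate 2 at 53.3%.

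gst-36 (R07B1.4; X, 9861646 to 9862960) had the tightest BW25113 libraries among these genes, at 21.8, 20.7 and 20.6 CPM, and stood at 26.7, 51.8 and 40.9 CPM on purE. The groups did not overlap, and its log2 fold change was 0.92 ± 0.29. The adjusted p was 0.161 by edgeR and 0.118 by DESeq2. Of the 5 most abundant members gst-1, gst-7 and gst-27 had smaller differences than gst-10 and gst-26. gst-1 averaged 137 ± 18.8 and 160 ± 15.5 CPM (SD, n = 3), with overlapping groups and a log2 fold change of 0.22 ± 0.23 (edgeR adjusted p of 0.612). gst-7 stood at 124, 83.7 and 56.4 CPM on BW25113 and 108, 84.6 and 94.6 CPM on purE, all within the BW25113 range. Its log2 fold change was 0.12 ± 0.31 (edgeR adjusted p of 0.841), and -0.20 without BW25113 replicate 3. The other 21 tested members had log2 fold changes from -0.28 to 1.40, 16 above 0 and 5 below, and edgeR adjusted p-values of 0.329 or more. The 5 below 0 were gst-9, gst-16, gst-22, gst-43 and gst-44.

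**Figure D4:**
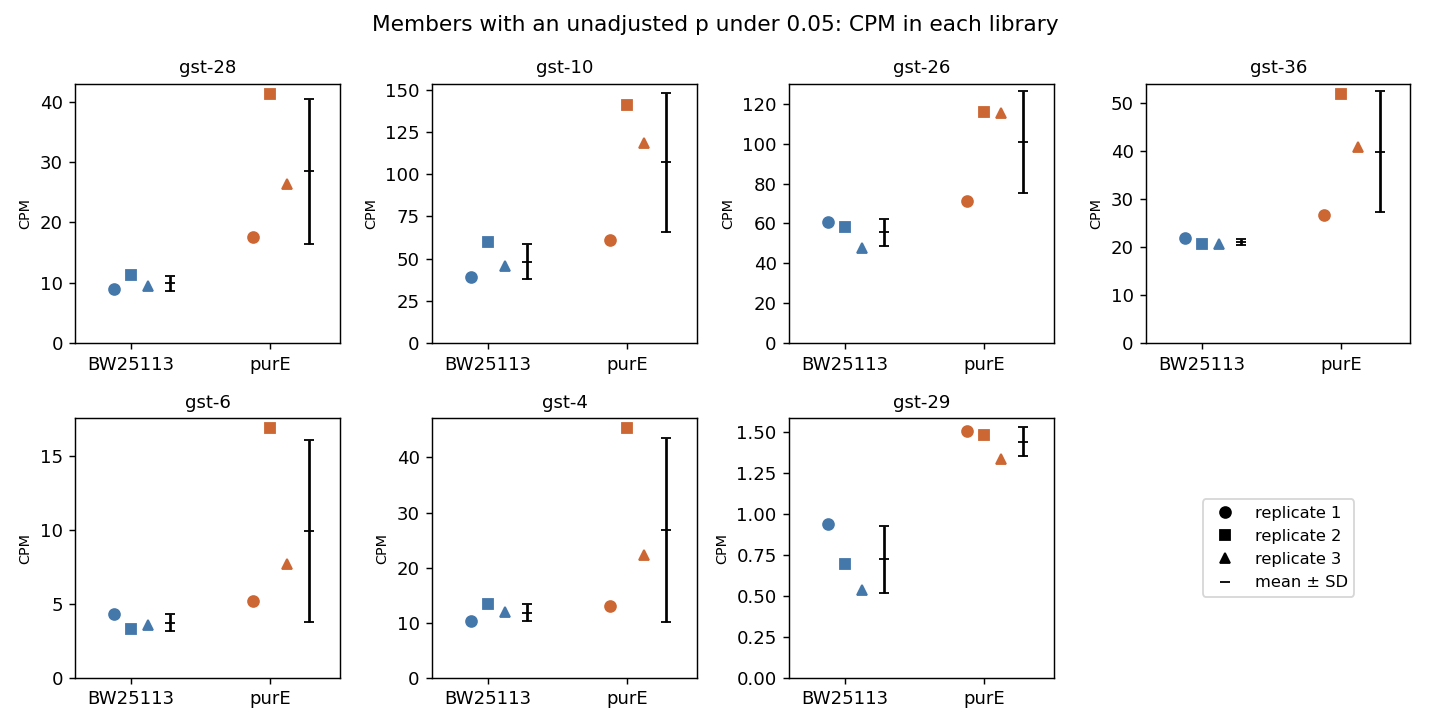
CPM in each library, on axes from 0, for the 7 members with an unadjusted p under 0.05, with the mean and SD of each diet beside the points (n = 3). In 6 of the panels purE replicate 1 is the lowest purE library and replicate 2 the highest; in gst-29 the 3 purE values lie between 1.34 and 1.51 CPM.

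The purE libraries differed among themselves in most of the family. purE replicate 2 was the highest purE library for 22 of the 31 tested members, or 71.0%, against 43.5% of all genes, and purE replicate 1 the lowest for 21, or 67.7%, against 45.1%. Among the 6 libraries BW25113 replicate 3 was the lowest for 16 members, or 51.6%, against 21.7% of all genes. Relative to the BW25113 mean, the median member stood at 0.06 (log2) in purE replicate 1, 0.96 in replicate 2 and 0.63 in replicate 3. When purE replicate 1 was left out, edgeR called 6 members higher, or 18.8% of the 32 then tested, against 11% of all genes, and 0 lower, against 3.48%. These were gst-28 at an adjusted p of 0.00965, gst-10 at 0.0167, gst-6 at 0.0316, gst-4 at 0.0317, gst-36 at 0.0382 and gst-26 at 0.0390, all from edgeR. Replicate 1 was the purE library nearest to BW25113 in the median member, so leaving it out favours calls of higher values. With any other single library left out, edgeR called 0 members. Without purE replicate 2 the median log2 fold change of the members was 0.24, and 0.02 over all genes.

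**Figure D5:**
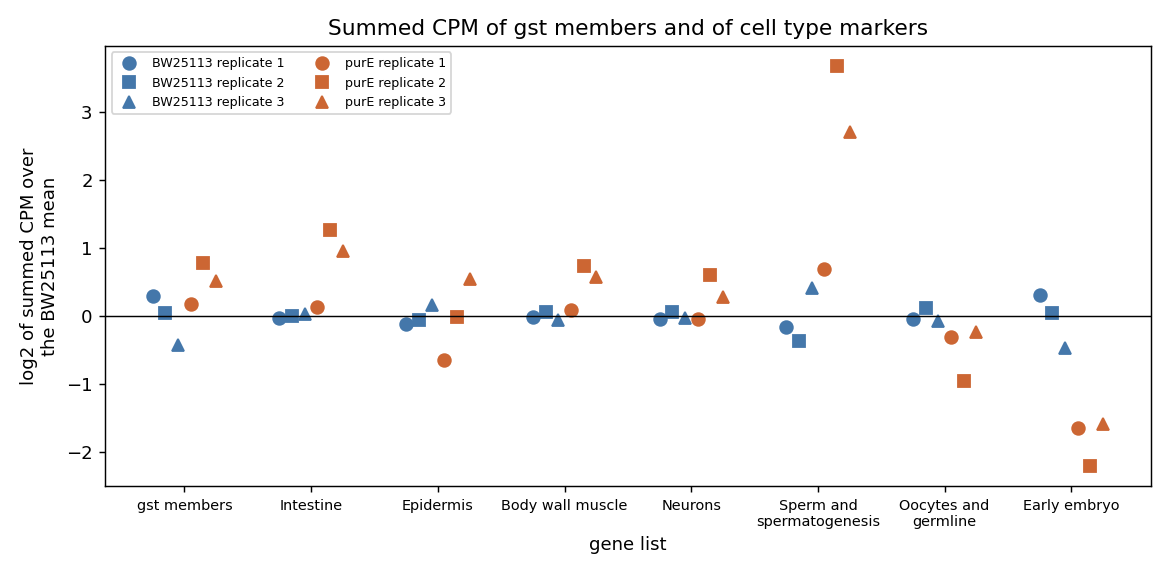
Summed CPM of the 44 members and of each cell type marker list in each library, as log2 over the mean of the BW25113 libraries; blue is BW25113 and orange purE. The gst sum stands at 0.18, 0.78 and 0.52 in purE replicates 1, 2 and 3 and the intestine sum at 0.13, 1.27 and 0.95. Most of the intestine sum is act-5 and most of the sperm sum msp-19.

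The summed CPM of intestine, muscle, neuron and sperm markers was higher in purE replicates 2 and 3 than in any BW25113 library. The family's summed CPM behaved likewise, but its summed deposited FPKM did not. That sum stood at 917, 759 and 655 FPKM on BW25113 and at 1026, 1126 and 908 FPKM on purE. By FPKM, purE replicates 1 and 2 were above every BW25113 library and replicate 3 was not. Of the 8 tested intestine markers 7 had a log2 fold change above 0, with a median of 0.44. Body wall muscle also had 7 of 8, with a median of 0.46. Neurons had 6 of 8 with a median of 0.20, and sperm 8 of 8 with 2.90. Over all genes 51.6% were above 0, with a median of 0.03. The intermediate filament gene ifb-2 stood at 58.1, 83.1 and 110 CPM on BW25113 and 123, 308 and 184 CPM on purE, whereas the gut esterase gene ges-1 had a log2 fold change of 0.07 ± 0.24. The part of these tissues in the gst values was not tested.

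Some members, named after their values were seen, varied more within the purE diet than between diets. gst-35 stood at 24.3, 15.04 and 11.4 CPM on BW25113 and at 10.03, 57.5 and 4.60 CPM on purE, a 12.5-fold range among purE libraries. gst-21 stood at 15.04, 9.73 and 6.45 CPM on BW25113 and at 6.06, 25.97 and 2.19 CPM on purE, an 11.8-fold range. In both, purE replicate 2 was the highest and replicate 3 the lowest of all 6 libraries. gst-40 had an 11.7-fold range on purE at low levels, from 0.221 to 2.59 CPM. The median range over tested members was 2.21-fold on purE and 2.13-fold on BW25113, against 1.83-fold and 1.65-fold over all genes.

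Glutathione itself is made and kept reduced by other enzymes, whose genes gave no edgeR call either. Of 14 tested genes of glutathione synthesis and thiol reduction, 9 had a log2 fold change above 0 with a median of 0.20, and 2 were higher at an unadjusted p under 0.05, a share near the 12.7% of all genes. gcs-1, which encodes the rate-limiting enzyme of glutathione synthesis and is itself a SKN-1 target, stood at 12.5, 17.1 and 21.3 CPM on BW25113 and 16.5, 11.1 and 15.7 CPM on purE. The thioredoxin gene trx-3 stood at 1.70, 1.52 and 1.18 CPM on BW25113 and at 1.36, 22.6 and 5.99 CPM on purE, so that replicate 1 lay among the BW25113 libraries. The log2 fold change of trx-3 was 2.76 ± 0.87 (adjusted p of 0.161 by edgeR, 0.00863 by DESeq2). The glutaredoxin gene glrx-10 stood at 49.1, 48.1 and 44.5 CPM and at 56.9, 84.6 and 78.4 CPM, without overlap, with a log2 fold change of 0.63 ± 0.24 and an edgeR adjusted p of 0.226.

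Among 6 tested genes with the transferase fold that carry other names, 5 had a log2 fold change above 0, with a median of 0.27. The omega-class gene gsto-1 stood at 8.73, 4.29 and 10.8 CPM on BW25113 and 10.3, 24.8 and 17.3 CPM on purE, with a log2 fold change of 1.13 ± 0.44 and an edgeR adjusted p of 0.243. Glutathione peroxidases had 6 of 7 values above 0 with a median of 0.10. In that list 0 reached an unadjusted p under 0.05, against 12.7% of all genes higher and 3.81% lower. The smallest p in that list was that of gpx-4, with a log2 fold change of -0.96 ± 0.53. The ABCC transporters, a family that exports glutathione conjugates, had 4 of 8 above 0 with a median of -0.01, and mrp-4 had -0.60 ± 0.37. Of the 3 tested glyoxal and sulphide enzymes 1 was above 0, with a median of -0.47, and djr-1.1 had 0.42 ± 0.23.

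The SKN-1 list held the factor and its regulators. Of 9 tested genes 2 had a log2 fold change above 0, against 51.6% of all genes, and the median was -0.10. The number at an unadjusted p under 0.05 was 0, against 12.7% of all genes higher and 3.81% lower. With 9 genes that count says little. For the kinase genes pmk-1 and nsy-1, at -0.59 ± 0.37 and -0.37 ± 0.26, every purE value was below every BW25113 value, as for 6.68% of all genes. skn-1 stood at 85.2, 127 and 164 CPM on BW25113 and 102, 121 and 128 CPM on purE, all within the BW25113 range. wdr-23, whose product targets SKN-1 for degradation, had -0.27 ± 0.34, and sek-1, a kinase gene with the smallest p of the list, had 0.59 ± 0.34.

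gst-42 encodes the zeta-class enzyme, a maleylacetoacetate isomerase that acts in tyrosine breakdown. It stood at 23.2, 12.1 and 9.23 CPM on BW25113 and 12.7, 27.1 and 18.2 CPM on purE, overlapping, with a log2 fold change of 0.38 ± 0.42 (edgeR adjusted p of 0.635). All 5 genes of the tyrosine breakdown list, gst-42 included, had a log2 fold change above 0, with a median of 0.57, and 3 were higher at an unadjusted p under 0.05, against 12.7% of all genes. fah-1, which encodes the next enzyme of the pathway, stood at 84.0, 82.8 and 72.1 CPM on BW25113 and 97.7, 155 and 149 CPM on purE. hgo-1, the homogentisate oxidase gene one step before gst-42, stood at 36.3, 28 and 24.3 CPM and at 40.8, 54.4 and 44.6 CPM. hpd-1 stood at 58.1, 49.9 and 63.5 CPM and at 106, 69.3 and 80.0 CPM. The groups did not overlap in these 3 genes, with every purE value above, as for 13.1% of all genes. Their log2 fold changes were 0.75 ± 0.26, 0.66 ± 0.25 and 0.57 ± 0.25. Their edgeR adjusted p-values were 0.188, 0.242 and 0.297.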

How the data were processed

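The deposited tables hold estimated counts per gene in a column for each library, per the file headers, of which 91.0% to 92.2% are whole. The authors' FPKM stand in further columns, per the file headers. Per the submitters' processing notes the reads were placed on WBcel235. For aligner, counter and strand handling the answer is not given in the sources used here. Counts were rounded. edgeR's default filter left 12144 of 18811 genes, libraries were scaled with TMM factors (0.844 to 1.20), and the diets were compared over all genes with edgeR 4.0.16's quasi-likelihood test in R 4.3.3, two-sided, adjusted by Benjamini-Hochberg at 0.05. Standard errors were derived from log2 fold changes and F statistics. Positions came from the annotation of the same build by symbol, for 44 of 44 members. Members given in full had an unadjusted p under 0.05, non-overlapping diets or one of the 5 highest mean FPKM values, or were gst-4 or gst-10. From each pathway list at most 4 genes of smallest p were to be given. The genes rol-6, lin-26, act-5, elt-7, mtl-2, msp-19, gcs-1, skn-1, wdr-23, pmk-1, nsy-1 and ges-1 were added after their values were seen. So were gst-5, gst-24, gst-42, gst-35, gst-21 and gst-40 among the members, and ifb-2, dhs-12 and msp-38 among the other genes. Members and lists were chosen with earlier results of these data known. Alternatives were other filters and scalings, DESeq2 1.42.0, limma 3.58.1 (voom, and log2(FPKM + 1)), a replicate block and each library left out; summed gene pairs were added after seeing the data. The tests were also run on simulated data, with an outcome not reported here.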

Additional observations from a re-analysis of the deposited data

How the results depend on the processing

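DESeq2 called 1 member and 946 genes in all, limma-voom and limma on log2(FPKM + 1) called 0 of both, with 7 and 6 members at an unadjusted p under 0.05. The replicate numbers are shared between diets, and the labels do not say whether they pair the libraries. The deviations of same-numbered libraries from their diet means correlated at -0.14, -0.17 and 0.14. With 3 libraries per diet this cannot settle whether they were paired. With the replicate block 0 members and 2 genes were called and 6 members had an unadjusted p under 0.05. Leaving out single libraries gave 0 to 6 called members and 0 to 1852 called genes in edgeR and 0 to 7 and 259 to 2574 in DESeq2, the highest without purE replicate 1, and 4 to 8 members at an unadjusted p under 0.05; 2 of these were lower on purE without purE replicate 2 in both tools and 1 without BW25113 replicate 3 in edgeR. The other filters and scalings called 0 members, with 6 or 7 at an unadjusted p under 0.05. Scaling by library size alone put the median of all genes at -0.07 and that of the members at 0.41, against 0.03 and 0.52 with TMM. Signs turned outside the left-out libraries for 3 members: gst-21 (-0.012 by library size alone, -0.47 in limma-voom, -0.46 on FPKM, -0.52 with the block), gst-35 (-0.22 in limma-voom, -0.28 on FPKM, -0.29 with the block) and gst-27 (0.075 in limma-voom, 0.049 with the block, 0.43 summed with gst-26). With single libraries left out, in edgeR or DESeq2, signs turned for 13 members, with ranges of -1.35 to 0.61 for gst-21, -0.20 to 0.39 for gst-15, -0.33 to 0.0072 for gst-43, -0.0071 to 0.46 for gst-12, -1.01 to 0.42 for gst-9, -0.33 to 1.30 for gst-40, -0.55 to 0.24 for gst-44, -0.20 to 0.43 for gst-7, -0.67 to 0.51 for gst-22, -1.23 to 0.99 for gst-35, -0.044 to 0.63 for gst-20, -0.57 to 0.17 for gst-27 and -0.35 to 0.11 for gst-16. The cause was not tested. None of the 7 members with an unadjusted p under 0.05 turned sign under any of these alternatives. These 7 were picked by p-value from the same libraries, so their stable signs are no independent check. The low-count filter left 13 members untested, and all 44 were tested without it.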
